A study of Rattus norvegicus with 6 samples.

Results

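Annexins are proteins that bind phospholipid membranes in the presence of calcium, and 9 members of the family were followed in the endosalpinx, which lines the oviduct. They were chosen by name: Anxa1 to Anxa8 and Anxa11, all 9 of which were measured, among 14506 genes in all. Each was represented by 1 probe set. RNA of 6 adult Sprague-Dawley rats was measured, each animal on an array of its own. The 3 unmated females were kept alone from pro-estrus and killed at 0130 h of estrus, with edema of the uterus as an additional sign of stage. The 3 mated females joined fertile males late on the day of pro-estrus, at 2200 h, and were checked for sperm or a vaginal plug 30 min later. They stayed with the male and were killed at 0130 h as well, which was 3 h after they had mated, with abundant semen in the uterus. The labels name no other genotype or treatment, and the effects of the company of a male, of the check and of mating itself cannot be told apart.

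Every annexin shares a core of similar repeats that carries the calcium sites, joined to a head at the amino end that differs between members and sets which partners are bound. Annexins lack a conventional secretion signal, yet several reach the outer face of the plasma membrane, where they can hold on to exposed phosphatidylserine. In cattle, annexins of the oviduct epithelium have been proposed as binding sites that hold sperm in the oviduct before ovulation. The arrays measured RNA, so they carry no information on protein at the cell surface or on binding of sperm.

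The values are log2 signals, so a difference of 1 is a doubling of the signal, and the median signal of an array lay between 7.89 and 7.94. As a guide to background, the 95th percentile of 1240 odorant and pheromone receptor genes was a log2 signal of 7.13, and genes at or below it are said to lie within the receptor range. All 8 epithelial markers lay above this limit, with Krt19, a keratin of simple epithelia, the brightest at 12.97 to 13.30 in unmated and 12.83 to 13.13 in mated rats. Of 7 measured markers of ciliated cells 6 lay above it, as did 7 of 9 macrophage markers, 8 of 10 fibroblast markers and 7 of 8 smooth muscle markers. Of all genes, 71.1% lay above it. All 10 neutrophil markers and 5 of 7 sperm transcripts lay within the receptor range. Prm1, a protamine of sperm chromatin and the brightest of the 7, was at 7.69 to 7.82 in unmated and 7.87 to 7.99 in mated rats, whereas Tnp1, a transition protein and the one of smallest p, was at 6.12 to 6.17 and 5.89 to 6.04. These counts do not by themselves show which cell types the tissue held. In a mixed tissue, fewer cells of a type and less RNA per cell cannot be told apart. The labels call the arrays biological replicates and number the rats separately, with every mated rat numbered below every unmated rat. Whether these numbers follow an order of handling is not stated, and such an order could not be told apart from mating.

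All 9 annexins were above the receptor range, as were 10308 of all 14506 genes (71.1%). Anxa1, a glucocorticoid-induced protein that dampens inflammation through formyl peptide receptors, had the highest signal, brighter than 99.8% of all genes. It was followed by Anxa5, an anticoagulant protein known as a probe for phosphatidylserine, then Anxa2, Anxa4 and Anxa6. Anxa11, Anxa3, Anxa8 and Anxa7 followed, and Anxa7, the dimmest, was still brighter than 60.0% of genes. Probe sets differ in how well they bind their targets, so this is an order of signals and not of RNA amounts. Among neighbours in the order, the ranges over the 6 animals overlapped for Anxa2 and Anxa4, for Anxa11 and Anxa3, and for Anxa8 and Anxa7. Anxa2 exceeded Anxa4 in 5 of 6 animals, by 0.23 ± 0.26 log2 units (SD, n = 6). Anxa11 exceeded Anxa3 in 5 of 6 animals, by 0.23 ± 0.22. The other neighbours kept their order in 6 of 6 animals with no overlap. These included the widest step, of 1.07 ± 0.20, from Anxa6 down to Anxa11.

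**Figure D1:**
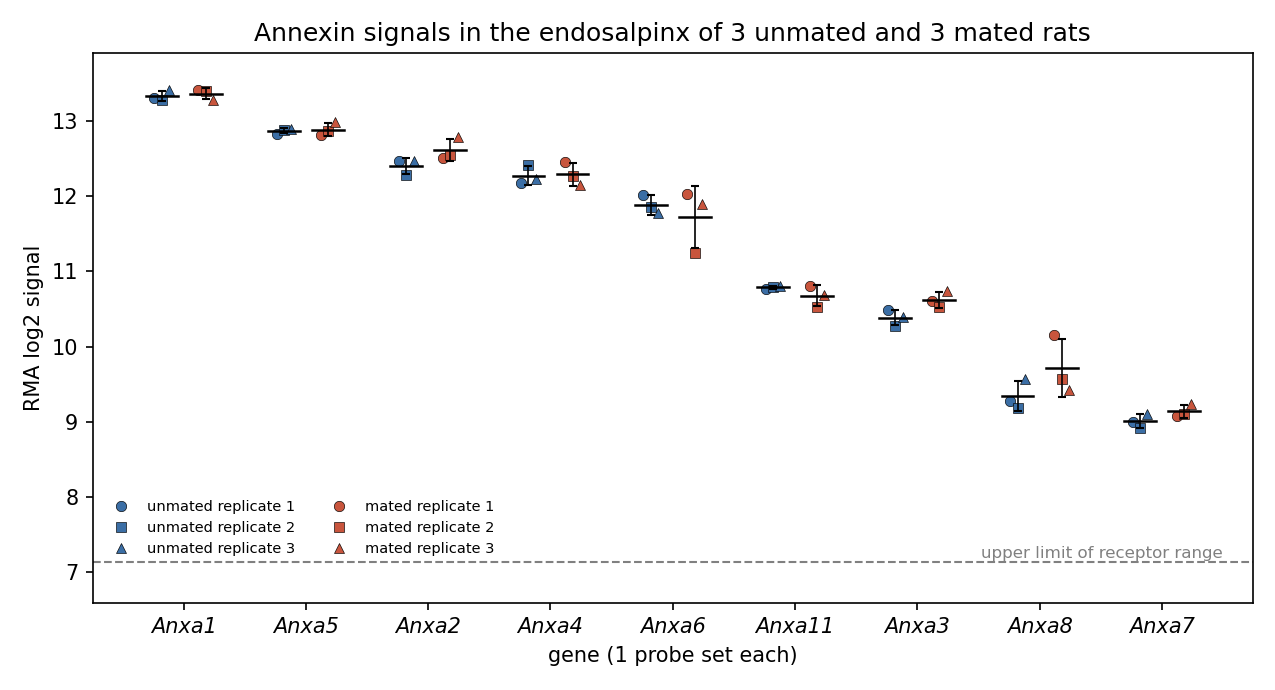
RMA log2 signal of each annexin (horizontal axis, ordered by mean signal) in each animal, with unmated rats in blue and mated rats in red; horizontal bars are group means, error bars are SDs (n = 3) and the dashed line is the upper limit of the receptor range, 7.13. All 9 genes lie above the line, and the mated points lie wholly above the unmated points for Anxa2 and Anxa3 alone among the 9.

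The mating comparison asks whether these transcripts differ in the oviduct lining at a time when, by the submitters' account of their colony, sperm should have reached the oviduct and ovulation is still to come; neither was recorded for these animals. Anxa2 and Anxa3 lay higher in all 3 mated rats than in any unmated rat, by 1.15-fold and 1.18-fold, and the other 7 annexins had overlapping groups. No annexin passed the threshold of an adjusted p under 0.05 by limma, and neither did any of the 14506 genes (0% of genes called). Groups that did not overlap were found with mated rats higher for 2 of the 9 annexins and for 760 of all genes (5.24%), and with mated rats lower for 0 annexins and 469 of all genes (3.23%). Of the 9 annexins, 1 had an unadjusted limma p under 0.05, as did 663 of all genes (4.57%). A single member is close to that background, and the counts over 9 members were not tested. Over the 9 members the median log2 difference, mated minus unmated, was 0.03, beside 0.01 over all genes, with 7 annexins above 0 and 2 below; 53.2% of all genes were above 0. The count at an unadjusted p under 0.05 was 0 without unmated replicate 2 or without unmated replicate 3, and 3 without mated replicate 1 (Anxa2, Anxa3 and Anxa11). Without mated replicate 3 it was 1, but the gene was Anxa8 and not Anxa3. The count over all genes moved too, to 1403 without mated replicate 1 and to 432 without unmated replicate 2.

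Anxa2 forms a complex with S100a10 under the plasma membrane and at the cell surface, where it binds tissue plasminogen activator and plasminogen. Its log2 signal was 12.47, 12.28 and 12.46 in unmated rats 1 to 3 and 12.50, 12.55 and 12.78 in mated rats 1 to 3. The groups were separated by only 0.03, between unmated replicate 1 and mated replicate 1, and mated replicate 3 stood highest. The difference was 0.21 (95% confidence interval -0.02 to 0.43), or 1.15-fold, with an adjusted p = 0.984 by limma. Without mated replicate 3 it was 0.12 and without unmated replicate 2 it was 0.15. The rat annotation lists 8 pseudogenes under Anxa2 names, and whether their transcripts reach this probe set was not tested.

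S100a10, the partner of Anxa2, was at 12.83, 12.80 and 12.99 in unmated rats and at 13.23, 13.00 and 13.10 in mated rats. These groups did not overlap either, though unmated replicate 3 and mated replicate 2 were 0.01 apart. The difference was 0.24 (0.03 to 0.44), with an adjusted p = 0.984 by limma. Both genes were lowest in unmated replicate 2, but among mated rats S100a10 was highest in replicate 1, where Anxa2 was at its lowest. The signal of Anxa2 relative to S100a10 in the same animal was -0.36, -0.52 and -0.53 in unmated and -0.73, -0.45 and -0.32 in mated rats, with the groups overlapping.

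Anxa3, abundant in neutrophils and tied to membrane fusion of their granules, was at 10.48, 10.28 and 10.39 in unmated rats. It was at 10.60, 10.52 and 10.74 in mated rats, so that the groups lay 0.04 apart and mated replicate 3 was again the highest. The difference was 0.24 (95% confidence interval 0.04 to 0.44), or 1.18-fold, with an unadjusted p = 0.0258 and an adjusted p = 0.984 by limma. The unadjusted limma p was above 0.05 without unmated replicate 2 (difference 0.19), without mated replicate 3 (difference 0.18) and without unmated replicate 3 (difference 0.24). Of 10 neutrophil markers, 7 were above and 3 below 0, and 2 had an unadjusted limma p under 0.05 (4.57% of all genes), both higher in mated rats. Elane, neutrophil elastase, was the one of smallest p, at 6.82 to 6.93 in unmated and 7.08 to 7.15 in mated rats. The mean of the 10 neutrophil markers was 6.27 to 6.42 in unmated and 6.34 to 6.43 in mated rats, all within the receptor range. The part of such cells in the Anxa3 signal was not tested.

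The promoter sequences of Anxa2 and Anxa3, the members whose groups did not overlap, are shown beside that of Anxa1, the brightest member, whose groups did. Each is the 250 bases before the transcript start in the RefSeq table of build GRCr8, read 5′ to 3′ on the strand of the gene, with capitals marking matches on either strand to the motifs named next. The windows are chr8:78986002-78986251 on the plus strand for Anxa2, chr14:13085598-13085847 on the minus strand for Anxa3 and chr1:227303733-227303982 on the minus strand for Anxa1.
Anxa2: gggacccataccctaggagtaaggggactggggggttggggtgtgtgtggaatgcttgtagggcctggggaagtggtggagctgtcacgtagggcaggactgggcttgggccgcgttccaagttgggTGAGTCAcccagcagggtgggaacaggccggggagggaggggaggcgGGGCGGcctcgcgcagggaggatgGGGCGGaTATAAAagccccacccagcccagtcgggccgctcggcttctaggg
Anxa3: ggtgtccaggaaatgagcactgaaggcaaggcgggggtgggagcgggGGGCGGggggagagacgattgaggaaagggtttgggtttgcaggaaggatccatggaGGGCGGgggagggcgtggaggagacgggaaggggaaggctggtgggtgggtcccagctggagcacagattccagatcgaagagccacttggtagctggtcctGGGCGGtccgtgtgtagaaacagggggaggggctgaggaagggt
Anxa1: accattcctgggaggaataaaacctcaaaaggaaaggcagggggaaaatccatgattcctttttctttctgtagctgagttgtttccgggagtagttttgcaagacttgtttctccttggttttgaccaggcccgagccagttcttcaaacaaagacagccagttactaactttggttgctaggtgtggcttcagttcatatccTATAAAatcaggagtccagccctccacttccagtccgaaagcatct
The search covered 5 short motifs and both strands. The TATA box, searched as TATAAA, stood 45 bases before the start in Anxa2 and 46 bases before it in Anxa1, and it was found in 13.1% of 27457 RefSeq promoter windows of this length. A GC box, searched as GGGCGG, occurred 2 times in Anxa2 and 3 times in Anxa3. It was present in 5 of the 8 annexin promoters in the table (Anxa2, Anxa3, Anxa4, Anxa5 and Anxa11) and in 32.4% of all windows. An AP-1 site, searched as TGANTCA with any base at the N, stood 123 bases before the start in Anxa2. It was present in 1 of the 8 annexin promoters and in 6.36% of all windows. A CCAAT box was present in 2 of the 8, Anxa4 and Anxa7, and in 34.3% of all windows. A cyclic AMP response element, searched as TGACGTCA, was found in 0 of the 8 and in 1.7% of all windows. None of these motifs overlapped another in the 3 windows shown. Over these 250 bases the GC content was 67.2% in Anxa2, 64.0% in Anxa3 and 45.2% in Anxa1, beside a median of 52.0% over all windows. In the other annexin windows it was 69.2% for Anxa11, 65.2% for Anxa5, 62.4% for Anxa4, 60.4% for Anxa8 and 50.8% for Anxa7. The signals of these further genes overlapped between mated and unmated rats. The motif matches describe the letters of the window and were not tested as binding sites.

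**Figure D2:**
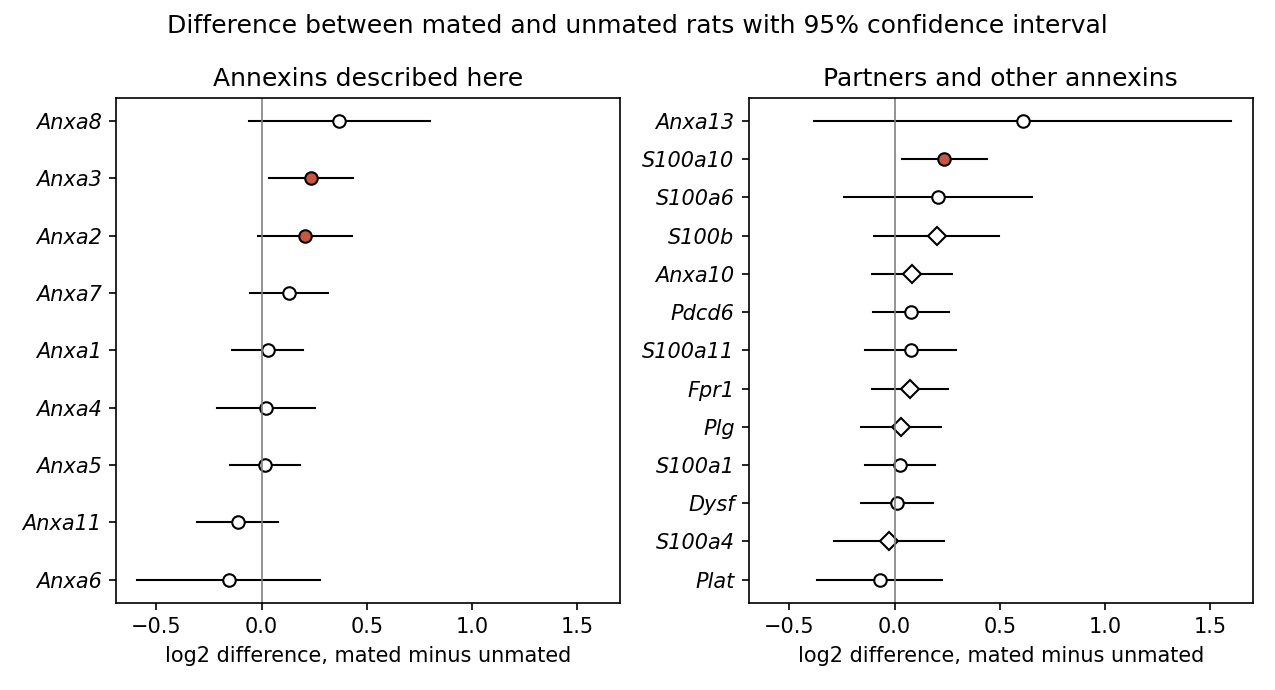
Log2 difference, mated minus unmated, with its 95% confidence interval (n = 3 per group) for the 9 annexins on the left and for their partners and 2 further annexins on the right; circles are genes above the receptor range, diamonds are genes within it, and red marks genes whose groups did not overlap. Only the intervals of Anxa3 and S100a10 lie wholly above 0 before adjustment, and Anxa13 has the widest interval.

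Anxa1, Anxa4 and Anxa5, which with Anxa2 are the annexins reported from bovine oviduct membranes, had differences close to 0. Anxa1 was at 13.30, 13.28 and 13.41 in unmated and 13.41, 13.39 and 13.28 in mated rats, so both groups covered the same range. Its difference was 0.03 (95% confidence interval -0.14 to 0.20). Anxa5 was at 12.83, 12.88 and 12.89 in unmated and 12.81, 12.86 and 12.98 in mated rats. Its difference was 0.02 (-0.15 to 0.18), which as a fold runs from 0.901 to 1.14, and it became 0.00 with each array centred on its median and -0.01 after a second quantile normalization. Both genes had adjusted p values of 0.987 and 0.989 by limma. These intervals bound the difference but do not show that mating leaves the transcripts alone.

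Anxa4, an annexin of secretory and absorptive epithelia, was at 12.17, 12.41 and 12.23 in unmated and 12.45, 12.27 and 12.15 in mated rats. The groups overlapped fully, and the highest values were in mated replicate 1 and unmated replicate 2. Its difference was 0.02 (95% confidence interval -0.21 to 0.25), and it was -0.03 with array weights. The mean of the 7 measured ciliated cell markers was highest in the same animals, at 10.27, 10.45 and 10.35 in unmated and 10.48, 10.27 and 10.25 in mated rats. This match was noticed after the values were seen, and its part in the Anxa4 signal was not tested.

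Anxa8, known from stratified epithelia and late endosomes, varied most among the 9. It was at 9.28, 9.19 and 9.57 in unmated and 10.15, 9.57 and 9.43 in mated rats, with mated replicate 1 well above all others and the remaining values overlapping. The difference was 0.37 (95% confidence interval -0.06 to 0.80), the largest of the 9, with an adjusted p = 0.984 by limma, and it was 0.15 without mated replicate 1. It was 0.51 without mated replicate 3, where the unadjusted limma p was under 0.05, and 0.48 without unmated replicate 3. The mean of 3 measured mesothelial markers, cells of the outer surface of the oviduct, was 9.61, 9.30 and 9.20 in unmated and 9.43, 9.19 and 9.45 in mated rats. The part of such cells in the Anxa8 signal was not tested. Of 10 fibroblast markers, 9 were below 0 and 1 above, and 1 had an unadjusted limma p under 0.05. Of 7 measured endothelial markers, 4 had such a p, 2 higher and 2 lower in mated rats, beside 4.57% of all genes. The part of these cells in any annexin signal was not tested.

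Anxa6, a larger annexin with a duplicated core that links membranes to the cytoskeleton and to cholesterol transport, was at 12.02, 11.85 and 11.77 in unmated rats. It was at 12.03, 11.25 and 11.89 in mated rats, so that mated replicate 2 alone lay below the unmated range. The difference was -0.16 (95% confidence interval -0.59 to 0.28), and without mated replicate 2 it was 0.08. The mean of 8 smooth muscle markers was 8.23, 8.32 and 8.02 in unmated and 8.04, 8.18 and 8.25 in mated rats, and the part of such cells in the Anxa6 signal was not tested.

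Anxa11, which binds the calcium sensors S100a6 and Pdcd6, was nearly constant in unmated rats, at 10.77, 10.79 and 10.80. It was at 10.81, 10.53 and 10.68 in mated rats, with replicates 2 and 3 below and replicate 1 above the unmated values. The difference was -0.11 (95% confidence interval -0.31 to 0.08). It was -0.04 without mated replicate 2 and -0.18 without mated replicate 1, where the unadjusted limma p was under 0.05. Anxa7, or synexin, which promotes fusion of secretory granules, was at 9.0, 8.92 and 9.11 in unmated and 9.08, 9.10 and 9.24 in mated rats. Its groups overlapped through unmated replicate 3, and the difference was 0.13 (-0.06 to 0.32), or 0.080 without mated replicate 3 and 0.085 without unmated replicate 2. The rat annotation lists 4 pseudogenes under Anxa7 names, whose part in the signal was not tested.

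**Figure D3:**
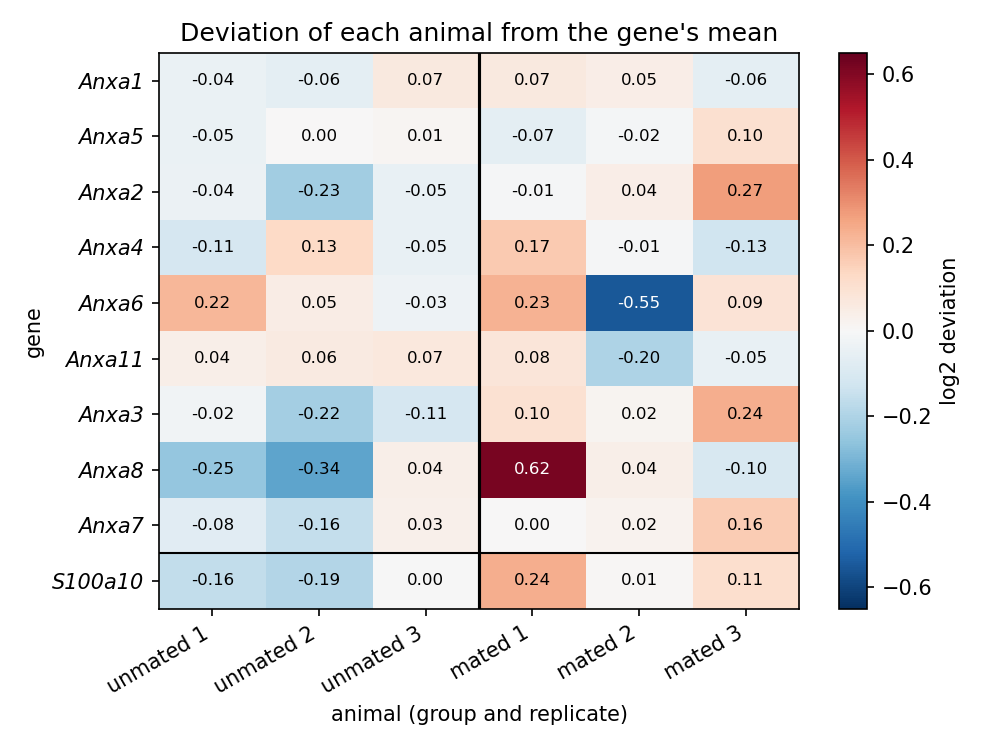
Deviation of each animal (columns, 3 unmated to the left of the line and 3 mated to the right) from the mean log2 signal of each gene over the 6 animals, for the 9 annexins and, under the line, S100a10; red is above and blue below the mean. The strongest colours are single animals: Anxa8 in mated replicate 1, at a signal of 10.15, and Anxa6 in mated replicate 2, at 11.25.

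Single animals thus carried much of the variation. Of the 9 annexins, 4 had their highest signal in mated replicate 1 (Anxa4, Anxa6, Anxa8 and Anxa11) and 4 in mated replicate 3 (Anxa2, Anxa3, Anxa5 and Anxa7). Anxa1 was highest in mated replicate 1 and unmated replicate 3 alike. The mean deviation of the 9 from their own means was 0.13, -0.07 and 0.06 in mated replicates 1 to 3. In unmated replicates 1 to 3 it was -0.04, -0.09 and -0.002. Unmated replicate 2 held the lowest signal of Anxa2, Anxa3, Anxa7 and Anxa8, and shared the lowest signal of Anxa1. The SD over all 6 animals ranged from 0.06 for Anxa5 to 0.34 for Anxa8, beside a median of 0.11 over all genes. Anxa8 had a larger SD than 98.0% of genes and Anxa6 than 96.4%, whereas Anxa5 exceeded only 12.3% and Anxa1 15.6%.

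**Figure D4:**
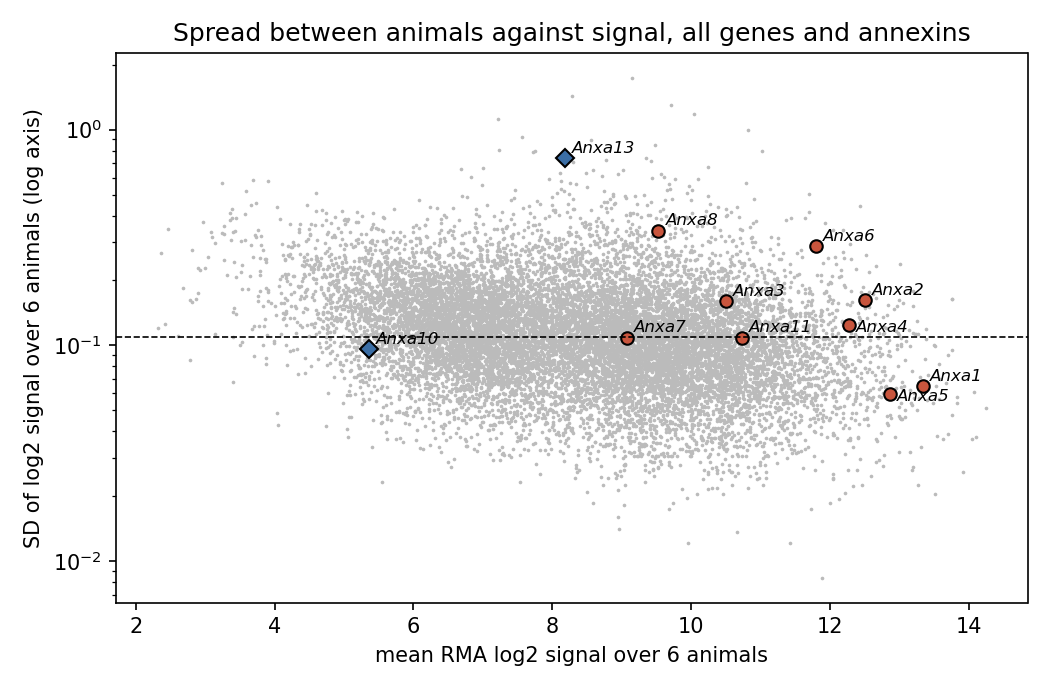
SD of the log2 signal over the 6 animals (log axis) against the mean log2 signal for all 14506 genes (grey), the 9 annexins (red circles) and Anxa10 and Anxa13 (blue diamonds); the dashed line is the median SD, 0.11. Anxa1 and Anxa5 lie low at bright signals, Anxa8 and Anxa6 lie high, and Anxa13 lies above all 9.

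The annexins were also compared with each other for their difference between mated and unmated rats, using the signal of one relative to another in the same animal, in which a constant shift of an array cancels. Of 36 such comparisons, 4 gave groups that did not overlap, each at an exact permutation p = 0.10 (two-sided), the smallest that 3 against 3 animals allow. The adjusted p over the 36 was 0.514 for these (Benjamini-Hochberg, exact permutation test). Anxa3 relative to Anxa11 differed most of the 4, at -0.51 to -0.29 in unmated and -0.21 to 0.06 in mated rats. Anxa2 relative to Anxa5 was -0.60 to -0.36 in unmated and -0.31 to -0.20 in mated rats. Anxa3 relative to Anxa5 differed by 0.22 between the groups, and Anxa5 relative to Anxa7 by -0.11. No comparison of this design could have passed a threshold of 0.05, so these tests leave undecided whether the annexins differ from each other in their relation to mating.

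Of 3 further annexins, 2 were measured. Anxa13, an annexin of intestinal and kidney epithelium, was at 8.68, 7.89 and 7.05 in unmated and 8.92, 8.79 and 7.74 in mated rats, a range of 1.87 log2 units across the 6 animals. Its groups overlapped and its difference was 0.61 (95% confidence interval -0.38 to 1.60), with a larger SD than 99.9% of genes. Anxa10, known from the stomach, lay within the receptor range at 5.22 to 5.45.

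Of 14 listed partners and receptors of annexins, 11 were measured, and 0 passed the adjusted threshold; S100a10 was the only one with an unadjusted limma p under 0.05, beside 4.57% of all genes. The median difference over the 11 was 0.07. S100a11, which binds the head of Anxa1, was bright, at 12.84 to 13.00 in unmated and 12.82 to 13.11 in mated rats. S100a6 ranged from 8.37 to 9.09 in unmated and from 8.59 to 9.02 in mated rats, and Pdcd6 from 9.74 to 9.88 and from 9.80 to 9.99. Plat, the tissue plasminogen activator bound by the complex of Anxa2, was among the brightest genes, at 13.20 to 13.26 in unmated and 12.94 to 13.47 in mated rats. Its difference was -0.07 (95% confidence interval -0.37 to 0.23). Plg, its substrate plasminogen, and Fpr1, a receptor for Anxa1, lay within the receptor range, as did S100a4 and S100b. S100a1 and Dysf, the membrane repair protein dysferlin, differed by 0.03 and 0.01.

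Genes that expose phosphatidylserine, the lipid annexins bind, recognise it or return it to the inner leaflet were split in direction. Of 12 measured, 4 were above and 7 below 0 and 1 was at 0, with a median of -0.02, and 0 had an unadjusted limma p under 0.05. Mfge8, a secreted protein that bridges phosphatidylserine to integrins, was the brightest, at 13.47 to 13.60 in unmated and 13.34 to 13.62 in mated rats. Tmem30a, a subunit of the flippases that return the lipid to the inner leaflet, had the smallest p, at a difference of 0.10 (95% confidence interval -0.06 to 0.26). Of 7 measured genes for other proteins that have been proposed to hold sperm in the oviduct, 1 had an unadjusted limma p under 0.05 (4.57% of all genes). This was Hspd1, the mitochondrial chaperonin, at 11.78 to 12.13 in unmated and 12.13 to 12.42 in mated rats. Hspa8, a chaperone, was the brightest, at 14.20 to 14.28 in unmated and 14.24 to 14.34 in mated rats.

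Among 10307 other genes above the receptor range, those whose profile over the 6 animals lay closest to that of Anxa8, the most variable annexin, were Fas, Prss12, Matn1, Tacr1 and Rasgrp1. The root mean square difference of their log2 deviations from those of Anxa8 ran from 0.08 for Fas to 0.11 for Rasgrp1. The median over all candidates was 0.31, but a gene of constant signal would also stand 0.31 from Anxa8. That median thus mostly reflects the spread of Anxa8 itself, and the 5 genes were picked as the closest. Fas, a death receptor, was at 6.92, 6.95 and 7.38 in unmated and 7.71, 7.25 and 7.08 in mated rats, so 3 of its 6 values were within the receptor range and its mean passed the limit through mated replicates 1 and 2 and unmated replicate 3. Each of the 5 was highest in mated replicate 1, as Anxa8 was, so the likeness rests largely on that animal.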

How the data were processed

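Per the labels' protocols, 0.3 µg of total RNA of each animal was amplified and labelled with Affymetrix whole-transcript kits for Affymetrix arrays. The authors deposited a log2 signal for every probe set on every array, and the submitters' processing notes name RMA and Affymetrix Expression Console, without versions. That the scale is log2 follows from this method and from how far the values reach; the genome build, scan dates and any batch are not given in the sources used here. RMA equalises the distributions of the arrays, so a shift common to most transcripts would not be visible. Precision is set by the number of arrays, since depth does not apply to them.

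Of 29214 probe sets, 15310 had exactly 1 gene symbol, 323 several and 13581 none listed; for each gene the probe set of highest mean was kept, which left 14506 genes. Symbols were checked against the RefSeq gene table of GRCr8 through 15279 matched Entrez identifiers, and 0 changed. The groups were compared with limma 3.58.1 in R 4.3.3 (lmFit and eBayes, no block), with Benjamini-Hochberg adjustment over all genes and two-sided tests. Intervals come from this moderated fit, unadjusted. The procedure was tested on simulated data. The members, lists and rules were chosen with earlier results of these data known. The rule for named genes took all members, every measured partner and further annexin, the gene of smallest p and the brightest of the other lists described, and the 5 genes whose profile was closest to that of the most variable member.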

Additional observations from a re-analysis of the deposited data

How the results depend on the processing

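The number of genes past the adjusted threshold was 0 under each of 16 alternatives. As deposited, 663 genes (4.57%) had an unadjusted limma p under 0.05. This count was 1207 (8.32%) under array weights. It was 262 of the 7253 genes left (3.61%) when the dimmest 50% of genes were dropped. All 9 annexins stayed above the receptor range under the scalings, probe set rules and omissions of 1 array that were tried, and with the 99th percentile of receptor genes as the limit. Of the 16 alternatives, 7 leave the difference of an annexin as it was by construction. They alter the block, the variances, the other genes tested or the probe set rule, and each annexin has 1 probe set. Under the other 9, which are array weights, the scalings and the omissions of 1 array, Anxa1, Anxa2, Anxa3, Anxa7, Anxa8 and Anxa11 kept their direction. The number of annexins with an unadjusted p under 0.05 was 2 with an intensity trend and 2 with array weights (Anxa2 and Anxa3), and 0 to 3 when 1 array was left out. The unadjusted limma p of Anxa3 ran from 0.0187 to 0.0948 over the alternatives, and that of Anxa2 from 0.0303 to 0.227. Anxa4 turned to -0.0316 with array weights and ran from -0.06 to 0.09 when 1 array was left out. Anxa5 was -0.0128 after a second quantile normalization and 0.00 with median centring, and ran from -0.0317 to 0.0533 when 1 array was left out. Anxa6 ran from -0.31 to 0.08 when 1 array was left out. For these signs of values near 0 the cause was not tested.

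With the replicate number as a block the count of annexins at an unadjusted p under 0.05 was 1, the count of genes past the adjusted threshold was 0, and 672 genes had an unadjusted p under 0.05. The labels do not say that the numbers are shared between the groups. The correlations of same-numbered deviations across genes were 0.00, -0.08 and 0.07, and no unmated animal was closest to the mated one of its own number. Of the mated animals, only replicate 3 was closest to the unmated one of its own number. With 3 animals per group, these values cannot decide whether the animals were paired. With 3 animals per group, the 95% confidence interval of the median gene reached 0.20 log2 units to either side, about the size of the differences of Anxa2 and Anxa3.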
